A study of Mus musculus with 6 samples.

Results

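The genes described here encode the type IV collagen chains Col4a1 and Col4a2, the heparan sulphate proteoglycans Hspg2 and Agrn, the laminin chains Lama2, Lama5, Lamb1 and Lamc1, and the nidogens Nid1 and Nid2. They were picked by name and symbol, with the difference between the genotypes already known, and are 10 of the 50763 genes in the count table, so their differences between genotypes are given as descriptions without a test. Poly(A) RNA was sequenced from fibroblasts, connective tissue cells, that were taken from mouse embryos at E13.5 and cultured briefly. The K68R cells carry a CRISPR knock-in of SOD2 (MnSOD, the superoxide dismutase of the mitochondrial matrix) in which an arginine replaces a lysine to mimic the form without acetylation, and the WT cells carry unaltered SOD2. All cells were C57BL/6J, no agent was given, each genotype had 3 libraries labelled as biological replicates, and the labels do not say whether the K68R cells were heterozygous or homozygous, or whether the replicates came from separate embryos. The p-values below therefore measure only the spread between these libraries, which may be technical. In the series whose adult knock-in mice have dilated cardiomyopathy, the comparison asks how the fibroblast transcriptome differs between the genotypes.

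Basement membranes are thin sheets of extracellular matrix that underlie epithelia and endothelia and wrap muscle, fat and Schwann cells. Laminins, trimers of an α, a β and a γ chain, polymerize on the cell surface, type IV collagen trimers form a covalent network beside them, and nidogens, perlecan and agrin connect the networks to each other and to cells. Fibroblasts do not rest on such a sheet, but cultured fibroblasts make several of its components and can supply them to neighbouring cells.

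Deposited counts of read pairs summed to between 26200088 and 31738219 in the K68R libraries and between 30856781 and 40691447 in the WT libraries, and 3 counts corresponded to 0.0728 to 0.116 CPM (read pairs per gene after scaling every library to 1 common total, with TMM factors). The 10 genes together held 0.832 ± 0.00217% of all counts in K68R libraries and 0.118 ± 0.00129% in WT libraries (SD, n = 3 each). In bulk RNA, fewer cells of a type and less RNA per cell cannot be told apart. Sod2 was at 48.9, 45.6 and 47.2 CPM in the K68R libraries and at 71.8, 68.9 and 69.2 CPM in the WT libraries, and a count per gene does not show the substitution itself. All 11 fibroblast markers examined were detected in both genotypes, and 5 of them were higher and 5 lower in K68R (edgeR). Among all genes tested 40.8% were higher and 40.5% lower. Vim averaged 4983 CPM in K68R cells and 4905 CPM in WT cells. Col1a1, Col1a2, Col3a1, Pdgfrb and Twist1 averaged 2445, 2408, 463, 226 and 78.3 CPM in K68R cells and 165, 611, 160.4, 185 and 52.3 CPM in WT cells. Pdgfra, Thy1, Dcn, Lum and Prrx1 averaged 65.3, 198, 40.9, 6.83 and 498 CPM in K68R cells and 363, 606, 178, 30.1 and 622 CPM in WT cells.

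All 10 genes passed the filter on low counts, and each was higher in every K68R library than in any WT library, an order that 41.3% of the 16730 genes tested also showed. In the fit over all genes (edgeR, adjusted p under 0.05) 40.8% of the genes tested were called higher, the 10 among them, and 81.4% were called in either direction, a count from which nothing is read for the 10. All 10 were at least 2-fold higher, against 22.2% of genes tested, 5 were at least 4-fold higher, against 10.1%, and 4 were at least 16-fold higher, against 1.72%. Because the genes were picked with this contrast known, these counts are no evidence about basement membrane genes as a class. Their median log2 fold change (K68R over WT) was 2.19, and that of all genes tested was -0.01.

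The stretches upstream of the transcription start of 8 of the 10 genes were in the RefSeq promoter set (build GRCm38.p6), and 3 of them are shown because they belong to the laminin and perlecan genes at the ends of the range of fold change. Each gives the 250 bases before the start, read 5′ to 3′ on the strand of the gene, with every match to GGGCGG, or to CCGCCC on the other strand, in capitals. Hspg2 is from chr4:137468553-137468802 (plus strand), Lama5 from chr2:180225860-180226109 (minus strand) and Lama2 from chr10:27616943-27617192 (minus strand).
Hspg2: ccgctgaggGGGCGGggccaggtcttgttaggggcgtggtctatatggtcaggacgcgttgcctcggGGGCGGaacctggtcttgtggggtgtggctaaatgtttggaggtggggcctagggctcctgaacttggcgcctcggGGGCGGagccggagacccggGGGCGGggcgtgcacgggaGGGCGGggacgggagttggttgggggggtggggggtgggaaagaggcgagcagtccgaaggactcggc
Lama5: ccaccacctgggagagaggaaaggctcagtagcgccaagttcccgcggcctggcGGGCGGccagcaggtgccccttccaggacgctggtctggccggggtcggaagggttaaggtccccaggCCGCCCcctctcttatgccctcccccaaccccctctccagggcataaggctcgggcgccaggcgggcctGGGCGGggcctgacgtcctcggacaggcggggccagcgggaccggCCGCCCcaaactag
Lama2: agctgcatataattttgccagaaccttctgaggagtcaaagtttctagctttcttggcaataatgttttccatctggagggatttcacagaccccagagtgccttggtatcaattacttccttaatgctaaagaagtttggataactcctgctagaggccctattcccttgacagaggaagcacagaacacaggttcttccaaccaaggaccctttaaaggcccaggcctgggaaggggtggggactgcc
The Hspg2 stretch held 5 matches at 70.0% GC, the Lama5 stretch 4 matches at 72.4% GC, and the Lama2 stretch no match at 47.2% GC. Of all 32851 stretches of this length, 32.7% held at least 1 match, and their median GC content was 52.4%. Hspg2 and Lama5 were among the genes with the highest fold change and Lama2 was among the lowest, as the values below show. A match of letters is a description of the sequence and not a binding site. Among the others, Nid1, with the smallest fold change of the 10 genes, held 1 match at 64.4% GC. Col4a1, which was 71.2-fold higher in K68R, held none at 74.4% GC. Col4a2 held 2 at 73.6% GC and Lamb1 held 2 at 62.0% GC. Agrn, 6.19-fold higher and listed with more than 1 start, held 12 before the upstream start and 2 before the downstream one. TATAAA, searched on both strands, was in none of the stretches of these 8 genes and in 12.4% of all stretches.

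Type IV collagen had the most abundant of these transcripts per length in K68R cells, while in WT cells 5 of the other 8 genes stood above both of its chains. Col4a1 and Col4a2 encode the chains that join in one trimer, the common form of type IV collagen. They lie head to head on chromosome 8 of build mm39, Col4a1 on the minus strand from 11248423 to 11362889 and Col4a2 on the plus strand from 11362878 to 11499287, so that their annotated 5′ ends overlap by 12 bases. Col4a1 was at 1960.2, 1963 and 1924 CPM in the K68R libraries and at 24.7, 29.5 and 28.5 CPM in the WT libraries. Col4a2 was at 1628, 1604 and 1583 CPM in the K68R libraries and at 18.5, 18.4 and 19.6 CPM in the WT libraries. The genotypes did not overlap for either gene, and the K68R level was 71.2-fold higher for Col4a1 (log2 fold change 6.15, SE 0.0400) and 85.3-fold higher for Col4a2 (log2 fold change 6.42, SE 0.0265). Other annotated genes, mainly the predicted gene Gm15418, share 12.2% of the exonic bases of Col4a1, and reads there could not be assigned.

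Both chains were present at nearly equal levels per length in each genotype. Per kilobase of exon, Col4a1 averaged 237 ± 2.66 CPM and Col4a2 252 ± 3.49 CPM in K68R libraries, and 3.35 ± 0.310 CPM and 2.95 ± 0.111 CPM in WT libraries (SD, n = 3 each). The ratio of Col4a1 to Col4a2 per length was 0.934, 0.949 and 0.942 in the K68R libraries and 1.04, 1.25 and 1.13 in the WT libraries. Per annotated length Col4a1 was thus slightly below Col4a2 in each K68R library and above it in each WT library. The WT values rest on 574 to 1017 counts per chain and library. The length of Col4a1 includes the 12.2% of its exonic bases where reads could not be assigned, against 0.188% for Col4a2. Which chain was the more abundant in K68R cells is therefore not settled.

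Hspg2 had the largest fold change of the 10 genes. It encodes perlecan, a large secreted proteoglycan that carries heparan sulphate, binds growth factors and is also abundant in cartilage (chromosome 4, 137196062 to 137297941, plus strand, mm39). Hspg2 was at 1866, 1865 and 1923 CPM in the K68R libraries and at 15.4, 16.1 and 15.96 CPM in the WT libraries. No WT library came near any K68R library. The means were 1885 ± 33.4 CPM in K68R cells and 15.8 ± 0.390 CPM in WT cells (SD, n = 3 each), a 119-fold gap with a log2 fold change of 6.90 (SE 0.0268).

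Agrn, the other heparan sulphate proteoglycan of this set, had a much smaller fold change. It encodes agrin, best known for clustering acetylcholine receptors at the neuromuscular junction (chromosome 4, 156249747 to 156281997, minus strand). Agrn was at 103, 101 and 97.3 CPM in the K68R libraries and at 15.5, 16.02 and 17.2 CPM in the WT libraries. That was 6.19-fold higher in K68R (log2 fold change 2.63, SE 0.0418), with no overlap of the genotypes. Per length, perlecan transcripts exceeded agrin transcripts 16.7 ± 0.764 times in K68R libraries, and the same ratio was 0.866 ± 0.0373 in WT libraries (SD, n = 3 each), so Agrn was the more abundant proteoglycan transcript in WT cells alone. Agrn shares 5.12% of its exonic bases with another annotated gene.

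**Figure D1:**
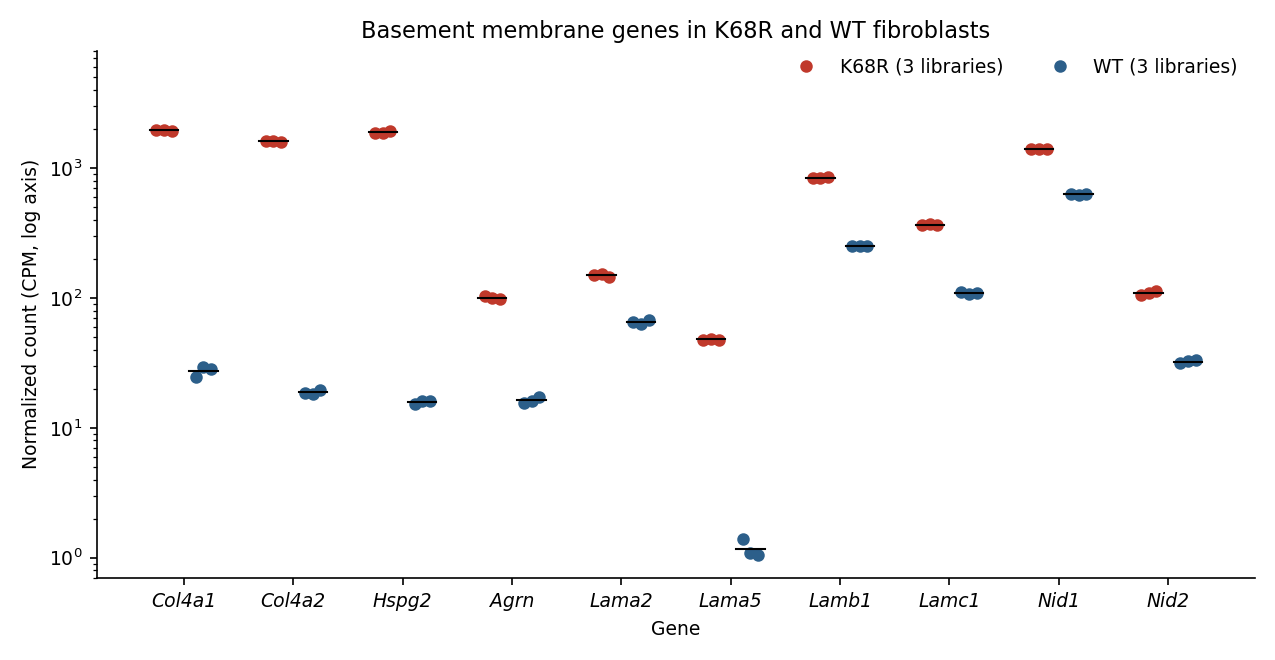
Normalized counts (CPM, log axis) of the 10 genes in each library, with K68R libraries in red left of WT libraries in blue and a black bar at each mean. In every gene the K68R points lie above the WT points, from a 2.22-fold gap in Nid1 to a 119-fold gap in Hspg2.

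The laminin chains differed widely in their gap between genotypes, from 2.29-fold for Lama2 to 40.3-fold for Lama5. Lama5 encodes the α5 chain, found in most adult basement membranes (chromosome 2, 179818166 to 179867652, minus strand, mm39). It was at 47.8, 48.6 and 47.4 CPM in the K68R libraries and at 1.38, 1.09 and 1.04 CPM in the WT libraries (log2 fold change 5.33, SE 0.0849). It was the least abundant of the 10 genes in each genotype, with 57, 34 and 35 counts in the WT libraries, and its coefficient of variation there, 15.7%, was the highest of the 10.

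Lama2 encodes the α2 chain of the laminin around muscle fibres and Schwann cells, whose loss causes muscular dystrophy in mice and people (chromosome 10, 26857281 to 27493021, minus strand). It was at 151, 154 and 145 CPM in the K68R libraries and at 65.6, 63.3 and 67.8 CPM in the WT libraries (log2 fold change 1.19, SE 0.0298). The genotypes did not overlap. Lama2 and Lama5 have similar exonic lengths, 11896 and 11388 bases, and transcript GC contents of 47.7% and 59.9%.

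Lamb1 and Lamc1 encode the β1 and γ1 chains that most laminins of the embryo share. Lamb1 (chromosome 12, 31315230 to 31379643, plus strand) was at 838, 833 and 847 CPM in the K68R libraries and at 252, 253 and 250.4 CPM in the WT libraries. Lamc1 (chromosome 1, 153094668 to 153208532, minus strand) was at 363, 369.7 and 365 CPM in the K68R libraries and at 110.4, 108 and 109.9 CPM in the WT libraries. The 2 chains moved by almost the same factor, 3.33-fold for Lamb1 (log2 fold change 1.74, SE 0.0193) and 3.35-fold for Lamc1 (log2 fold change 1.74, SE 0.0227). Their ratio per length was 2.99 ± 0.0454 in K68R libraries and 3.01 ± 0.0520 in WT libraries (SD, n = 3 each), a difference smaller than the spread between libraries. This likeness holds without the offsets for length and GC content described below. With them the log2 fold changes were apart, at 0.83 for Lamb1 (SE 0.0194) and 0.44 for Lamc1 (SE 0.0231).

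The makeup of laminin transcripts differed between the genotypes more in the α chains than in the β chains. As shares of all α chain transcripts per length, Lama2 made up 40.8 ± 0.231%, Lama4 42.2 ± 0.533% and Lama5 13.6 ± 0.242% in K68R libraries. In WT libraries the same shares were 20.9 ± 0.642% for Lama2, 78.0 ± 0.694% for Lama4 and 0.392 ± 0.0715% for Lama5 (SD, n = 3 each). Lama4, the α4 chain of mesenchymal and vascular laminins, was thus the leading α chain in WT cells and was level with Lama2 in K68R cells, with a ratio of 1.04 ± 0.0183 to Lama2 in K68R libraries and of 3.73 ± 0.149 in WT libraries. Lamb1 held 79.8 ± 0.518% of β chain transcripts in K68R libraries and 84.3 ± 0.823% in WT libraries (SD, n = 3 each). All these shares are without offsets for length and GC content. With offsets the log2 fold change was 0.83 for Lamb1 and -0.12 for Lamb2, so the lower Lamb1 share in K68R holds only without them.

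**Figure D2:**
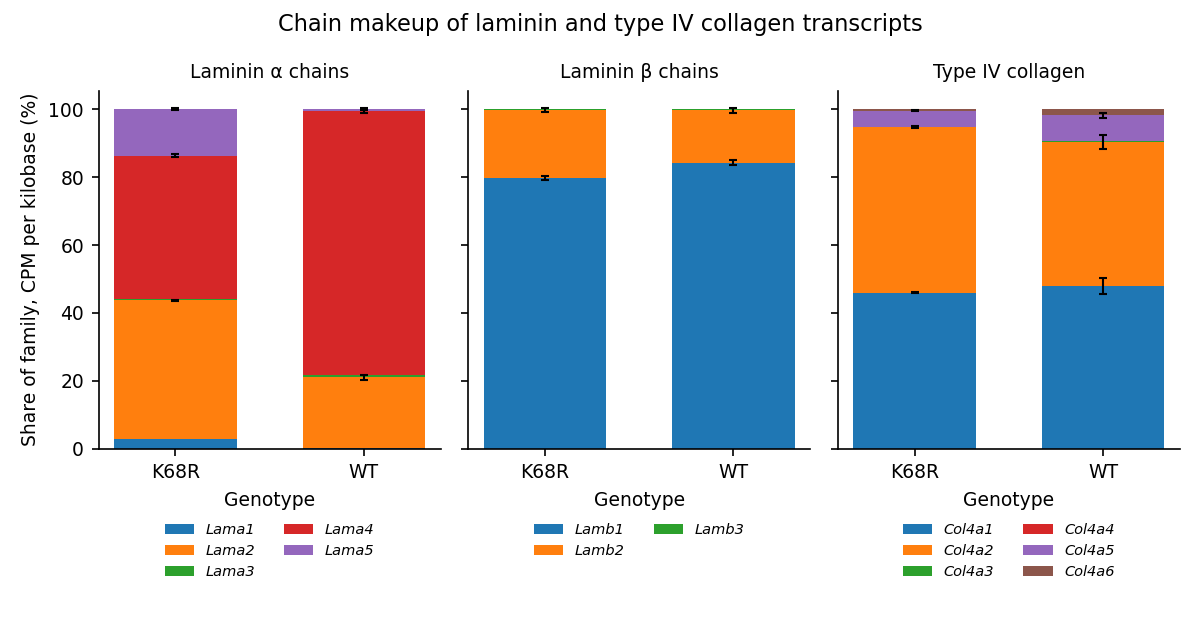
Share of each chain in its family, from mean CPM per kilobase of exon, as stacked bars for K68R (left) and WT (right) in each panel, with error bars of 1 SD (n = 3) for chains above 3%. The shares are without offsets for length and GC content. Lama4 shrinks to 42.2% of α chain transcripts in K68R, against 78.0% in WT, while Col4a1 and Col4a2 lead type IV collagen in both genotypes.

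Without offsets for length and GC content, the nidogens had the smallest gap for Nid1 and a gap like that of Lamb1 and Lamc1 for Nid2. Nidogens bind the laminin γ1 chain and type IV collagen and so link their networks. Nid1 (chromosome 13, 13612252 to 13686849, plus strand, mm39) was at 1403, 1395 and 1398 CPM in the K68R libraries and at 627, 622 and 637 CPM in the WT libraries, 2.22-fold higher in K68R (log2 fold change 1.15, SE 0.0174). Nid2 (chromosome 14, 19801325 to 19861855, plus strand) was at 105, 109 and 114 CPM in the K68R libraries and at 31.5, 32.6 and 33.1 CPM in the WT libraries, 3.38-fold higher in K68R (log2 fold change 1.76, SE 0.0360). Neither gene overlapped between genotypes, and Nid1 exceeded Nid2 in all 6 libraries, 10.5 ± 0.406 times per length in K68R and 15.9 ± 0.359 times in WT (SD, n = 3 each). These ratios are without offsets. With offsets for length and GC content the log2 fold changes were close, at 0.68 for Nid1 (SE 0.0177) and 0.73 for Nid2 (SE 0.0366). Nid1 was then above Lama2, Lamc1 and Agrn, at 0.56, 0.44 and 0.07. The gene Rtraf shares 7.90% of the exonic bases of Nid2.

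The order of the 10 genes by level per length changed between the genotypes. In WT cells Nid1 led at 105 ± 1.23 CPM per kilobase, followed by Lamb1 at 43.1 ± 0.251 and Lamc1 at 14.3 ± 0.186, with Nid2 at 6.63 ± 0.166, Lama2 at 5.51 ± 0.188, Col4a1 at 3.35 ± 0.310, Col4a2 at 2.95 ± 0.111, Agrn at 1.27 ± 0.0687, Hspg2 at 1.10 ± 0.0270 and Lama5 at 0.103 ± 0.0162 (SD, n = 3). In K68R cells Col4a2 at 252 ± 3.49, Col4a1 at 237 ± 2.66 and Nid1 at 234 ± 0.649 CPM per kilobase led (SD, n = 3), and Col4a1 and Nid1 differed by about the SD of Col4a1. Lamb1 at 144 ± 1.25 and Hspg2 at 131 ± 2.32 came next, then Lamc1 at 48.0 ± 0.420, Nid2 at 22.4 ± 0.833, Lama2 at 12.6 ± 0.357, Agrn at 7.85 ± 0.226 and Lama5 at 4.21 ± 0.0508 CPM per kilobase. The level of Col4a1 is per its full length, which includes bases where reads could not be assigned. Per assignable base it would be higher. Summed per length, Col4a1 and Col4a2 stood at 2.55 ± 0.0442 times Lamb1 and Lamc1 in K68R libraries and at 0.110 ± 0.00653 times in WT libraries (SD, n = 3 each).

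Exonic length and GC content moved with the difference between genotypes across the whole transcriptome, and these genes are long. The annotated exons of the 10 genes ran from 4884 bases for Nid2 to 14402 for Hspg2, with a median of 7922, against 3519 for all genes tested. The median log2 fold change of all genes climbed with length, through -0.57 under 1000 bases, -0.34, -0.05, 0.18 and 0.32 in the classes between, to 0.63 at 8000 bases and over. Each of the 10 lay above the median of its class. At 8000 bases and over, 0.159% of the 2516 genes reached the log2 fold change of Hspg2, 0.318% that of Col4a1, 1.03% that of Lama5, 13.6% that of Agrn and 35.2% that of Lama2. From 6000 to under 8000 bases, 0.234% of 1706 genes reached Col4a2 and 20.7% reached Lamc1, and from 4000 to under 6000 bases 15.6% of 3093 genes reached Nid2, 15.9% Lamb1 and 24.2% Nid1.

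Among the 10 genes the log2 fold change followed GC content more closely than length. Spearman's rho across the 10 was 0.98 with the GC content of the longest transcript and 0.42 with exonic length, a description over genes that share the same 6 libraries. Over all genes with a GC value the rho with GC content was 0.36, and over all genes tested the rho with length was 0.37. The 5 genes above 56% GC were the 5 with the highest fold change, Hspg2 (60.9%), Col4a2 (60.6%), Lama5 (59.9%), Col4a1 (57.7%) and Agrn (56.5%). Hspg2, Col4a1, Lama5 and Agrn belong to a class of 281 genes with 8000 exonic bases and over and a GC content of 55% and over, whose median log2 fold change was 3.15. Of that class 1.42% reached the value of Hspg2, 2.85% that of Col4a1, 8.90% that of Lama5 and 59.4% that of Agrn. Col4a2 is in the class of 286 genes from 6000 to under 8000 bases with like GC content, where the median was 2.52 and 1.40% reached its value. Agrn thus lay below the median of genes of like length and GC content.

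**Figure D3:**
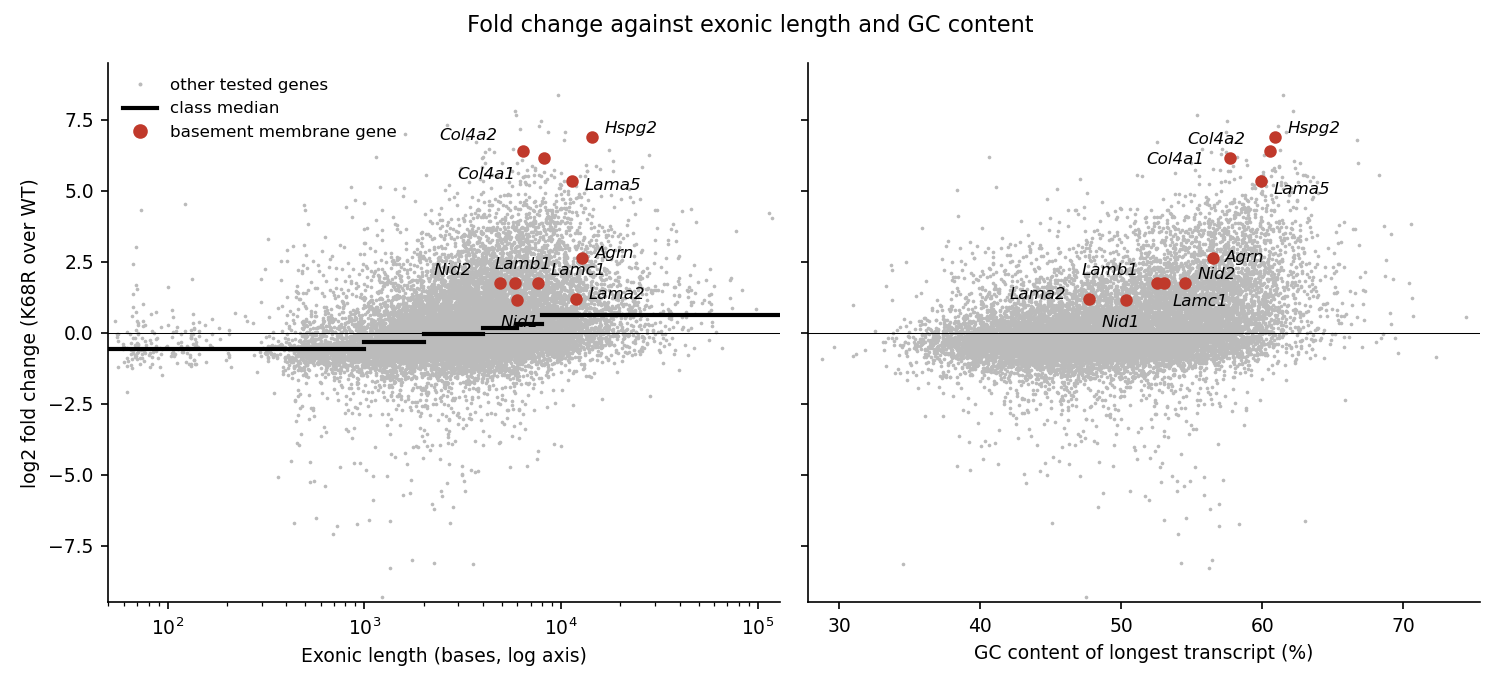
Log2 fold change (K68R over WT) of all genes tested against exonic length (left, log axis, black lines at the median of each length class) and against GC content of the longest transcript (right), with the 10 genes in red. Hspg2, Col4a1 and Lama5 stand well above the median of 0.63 of the class of 8000 bases and over. Col4a2 stands well above the median of 0.32 of the class from 6000 to under 8000 bases. Nid1 and Lama2 lie within the bulk of genes of their length.

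With per-library offsets that remove the smooth dependence on length and GC content, the 10 genes spanned a smaller range of log2 fold change, 0.07 to 3.54, against 1.15 to 6.90 without offsets. Col4a1, Col4a2, Hspg2 and Lama5 had log2 fold changes of 3.54 (SE 0.0473), 3.51 (SE 0.0270), 2.89 (SE 0.0289) and 1.80 (SE 0.112). Lamb1, Nid2, Nid1, Lama2 and Lamc1 had 0.83, 0.73, 0.68, 0.56 and 0.44, and Agrn had 0.07 (SE 0.0443), within 2 SE of 0. The median of the 10 was 0.78, and that of all 15358 genes with a GC value was -0.07. With offsets for length alone the values ran from 0.25 for Lama2 to 5.91 for Hspg2, while the median of all genes shifted to -0.22. RNA integrity numbers are given only as above 4 for all samples, none is given per library, and the part of RNA integrity, length and GC content in these differences was not tested.

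**Figure D4:**
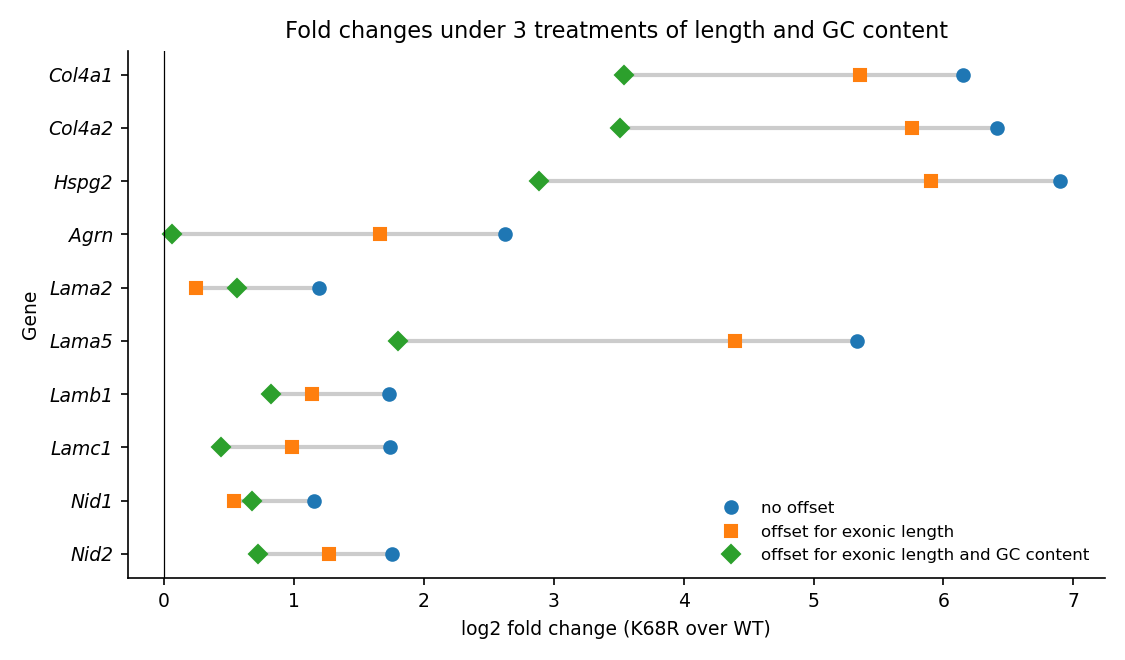
Log2 fold change (K68R over WT) of each gene without offsets (circles), with offsets for exonic length (squares) and with offsets for exonic length and GC content (diamonds). With offsets for length and GC content Agrn lies closest to 0, at 0.07, and Col4a1 and Col4a2 are highest, at 3.54 and 3.51. Hspg2 is highest without offsets and with offsets for length alone, at 6.90 and 5.91.

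The rest of the type IV collagen family and other laminin chains were examined in the same fit, in which 6833 genes were higher and 6780 lower in K68R (edgeR, Benjamini-Hochberg adjusted p under 0.05), or 5255 higher and 8234 lower with offsets for length. Values with offsets, given beside each gene here, are for length and GC content together. All 4 other type IV collagen chains rose, with a median log2 fold change of 4.22, and their median with offsets was 3.27. Col4a5 and Col4a6, which form a trimer in smooth muscle and some epithelial basement membranes, stood out by level. Col4a5 was at 157 ± 3.32 CPM in K68R cells and 3.38 ± 0.173 CPM in WT cells (SD, n = 3 each), 46.3-fold higher with an adjusted p = 1.33e-73 (edgeR), and its log2 fold change of 5.53 was 4.77 with offsets. Col4a6 was 16.7-fold higher, at 14.5 ± 1.04 CPM in K68R cells and 0.877 ± 0.401 CPM in WT cells (SD, n = 3 each; adjusted p = 1.67e-30, edgeR), and its log2 fold change was 2.79 with offsets. Col4a3 and Col4a4, chains of the glomerular basement membrane named after their values were seen, averaged 3.57 and 2.80 CPM in K68R cells and 0.199 and 0.138 CPM in WT cells, from 22 and 14 counts in the WT libraries together. Their log2 fold changes of 4.09 and 4.36 were 3.28 and 3.27 with offsets.

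Of 6 other laminin chains 4 rose, 1 fell and 1 was not called, with a median log2 fold change of 1.09, and with offsets 1 rose, 4 fell and 1 was not called. Lama1, the α1 chain of the early embryo, was at 8.91 ± 0.666 CPM in K68R cells and 0.297 ± 0.0638 CPM in WT cells, 29.2-fold higher (SD, n = 3 each; adjusted p = 7.06e-36, edgeR; log2 fold change 4.87, or 3.25 with offsets). Lamb2, the β2 chain of synapses and the kidney filter, was 4.57-fold higher, at 203 ± 5.21 CPM in K68R cells and 44.3 ± 2.39 CPM in WT cells (SD, n = 3 each; adjusted p = 7.35e-60, edgeR), but its log2 fold change of 2.19 turned to -0.12 with offsets. Lama4 fell to 78.9 ± 2.61 CPM in K68R cells, against 124 ± 3.72 CPM in WT cells (SD, n = 3 each; adjusted p = 8.23e-31, edgeR; log2 fold change -0.65, or -1.09 with offsets). Lama4 has 6046 exonic bases and a GC content of 50.03%.

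Of the 4 other collagens of the basement membrane zone, 3 rose and 1 was not called, and with offsets none rose, 2 fell and 2 were not called. Col7a1, which forms the anchoring fibrils of skin, was at 104 ± 1.59 CPM in K68R cells and 9.12 ± 0.657 CPM in WT cells, 11.4-fold higher (SD, n = 3 each; adjusted p = 1.04e-63, edgeR), and its log2 fold change of 3.51 was -0.09 with offsets. Col18a1, the precursor of endostatin, was 6.91-fold higher, at 47.9 ± 2.07 CPM in K68R cells and 6.92 ± 0.689 CPM in WT cells (SD, n = 3 each; adjusted p = 7.16e-50, edgeR), and its log2 fold change of 2.79 was -0.44 with offsets.

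Among 19 other basement membrane glycoproteins 14 rose and 5 fell, with a median log2 fold change of 1.49, and with offsets 10 rose, 7 fell and 2 were not called, with a median of 0.21. Fras1, which holds epidermis to dermis in the embryo, was 8.06-fold higher, at 28.7 ± 1.10 CPM in K68R cells and 3.55 ± 0.501 CPM in WT cells (SD, n = 3 each; adjusted p = 1.15e-44, edgeR; log2 fold change 3.01, or 1.28 with offsets). Ntn1, the guidance protein netrin-1, was 5.24-fold higher, at 19.6 ± 0.187 CPM in K68R cells and 3.71 ± 0.708 CPM in WT cells (SD, n = 3 each; adjusted p = 6.98e-36, edgeR; log2 fold change 2.39, or 0.21 with offsets). Egfl6, a secreted protein with EGF-like repeats, fell to 0.226 ± 0.0328 CPM in K68R cells, against 5.76 ± 0.212 CPM in WT cells (SD, n = 3 each; adjusted p = 7.99e-30, edgeR; log2 fold change -4.64, or -4.31 with offsets). Sparc, a collagen-binding matricellular protein named after its values were seen, was among the most abundant of the list and changed little, at 2569 ± 35.2 CPM in K68R cells and 2915 ± 17.8 CPM in WT cells (SD, n = 3 each; log2 fold change -0.18, or -0.17 with offsets; adjusted p = 3.90e-17, edgeR). Fbln2, of like abundance in K68R cells and also named after its values were seen, was 3.87-fold higher. It was at 2672 ± 9.85 CPM in K68R cells and 690 ± 5.89 CPM in WT cells (SD, n = 3 each; log2 fold change 1.95, or 0.21 with offsets; adjusted p = 7.63e-75, edgeR).

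Of 17 receptors for these matrix proteins 11 rose, 3 fell and 3 were not called, with a median log2 fold change of 0.75, and with offsets 8 rose, 6 fell and 3 were not called. Sdc3, a cell surface heparan sulphate proteoglycan, was 13.7-fold higher, at 275 ± 1.97 CPM in K68R cells and 20.1 ± 0.311 CPM in WT cells (SD, n = 3 each; adjusted p = 4.35e-76, edgeR; log2 fold change 3.77, or 1.44 with offsets). Itga3, the α3 integrin that binds laminins containing α5, was 10.1-fold higher, at 80.7 ± 0.942 CPM in K68R cells and 8.07 ± 0.648 CPM in WT cells (SD, n = 3 each; adjusted p = 6.32e-60, edgeR; log2 fold change 3.33, or 1.27 with offsets), and 11.8% of its exonic bases are shared with another gene. Itgb4, the β4 integrin of hemidesmosomes, was 12.9-fold higher at 10.9 ± 1.17 CPM in K68R cells and 0.844 ± 0.281 CPM in WT cells (SD, n = 3 each; adjusted p = 1.18e-33, edgeR; log2 fold change 3.69, or 0.91 with offsets). The 3 that fell were Sdc4, another syndecan, Itga6, the α6 laminin-binding integrin, and Ddr2, a collagen receptor kinase, with log2 fold changes of -1.02, -0.15 and -0.14, or -0.86, -0.43 and -0.35 with offsets (adjusted p = 1.11e-43, 4.90e-07 and 2.83e-09, edgeR).

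Without offsets, most genes of the machinery that folds, modifies and exports type IV collagen differed by less than 2-fold between the genotypes, in both directions. Of 19 genes 8 rose and 9 fell, while 2 were not called and the log2 fold changes had a median of -0.03. With offsets 5 rose, 8 fell and 6 were not called, and the median was -0.02. Without offsets, those that rose at least 2-fold were P3h2 and P3h3, prolyl 3-hydroxylases, at 12.8 ± 0.344 and 40.5 ± 1.28 CPM in K68R cells and 3.21 ± 0.168 and 11.9 ± 0.614 CPM in WT cells (SD, n = 3 each; log2 fold changes 2.00 and 1.77, adjusted p = 4.46e-29 and 2.14e-40, edgeR). Their values with offsets were 1.77 and -0.15, and P3h2 shares 31.7% of its exonic bases with another gene. P3h1, a further prolyl 3-hydroxylase, had a log2 fold change of 0.98, or 0.05 with offsets (adjusted p = 5.35e-40, edgeR). Serpinh1, the collagen chaperone HSP47, and P4hb, a subunit of prolyl 4-hydroxylase, both named after their values were seen, were at 1859.9 ± 5.12 and 998 ± 11.6 CPM in K68R cells and 1686 ± 20.8 and 1136 ± 8.18 CPM in WT cells (SD, n = 3 each), with log2 fold changes of 0.14 and -0.19 (adjusted p = 3.18e-12 and 5.95e-16, edgeR). With offsets these were -0.09 and -0.42. Also named after their values were seen were Ppib, Plod3 and Colgalt1. Ppib had the largest fall of the list without offsets, and Plod3 and Colgalt1 had the largest falls with offsets. For Ppib, Plod3 and Colgalt1 in turn, the log2 fold changes were -0.84, -0.20 and -0.18 without offsets. With offsets they were -0.41, -1.34 and -1.03. Ppib shares 54.2% of its exonic bases with another gene, and Plod3 shares 9.88% with other genes.

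Genes that build or trim heparan sulphate, the side chain of perlecan and agrin, rose more often than they fell without offsets, but not with them. Of 19 genes 13 rose, 8 of them at least 2-fold, and 6 fell, with a median log2 fold change of 0.62, and with offsets 8 rose, 10 fell and 1 was not called. Sulf2, which removes sulphate groups from heparan sulphate outside the cell, was 4.02-fold higher, at 320.3 ± 3.40 CPM in K68R cells and 79.7 ± 1.24 CPM in WT cells (SD, n = 3 each; adjusted p = 6.08e-66, edgeR; log2 fold change 2.01, or 1.26 with offsets). Xylt2, which starts the chain on the core protein, and Hs6st1, a sulphotransferase, had log2 fold changes of 2.10 and 1.64, or 0.22 and 0.27 with offsets (adjusted p = 3.07e-38 and 4.50e-44, edgeR).

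**Figure D5:**
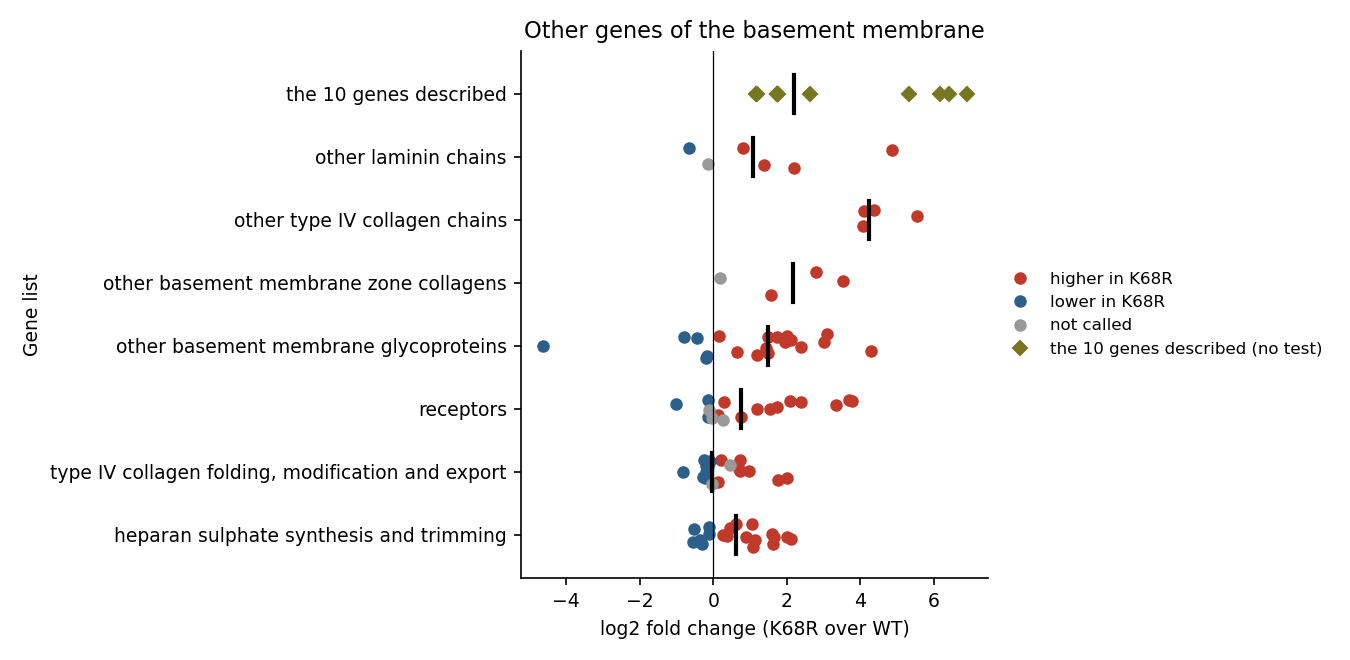
Log2 fold change (K68R over WT, no offsets) of each gene in 7 lists of other basement membrane genes, coloured by call, with the 10 genes described on the top row and a black line at each median. Type IV collagen chains lie furthest right, with a median of 4.22, and the genes for folding and export are centred at -0.03.

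Across these 7 lists, which were put together with earlier results of these data known, 57 of 88 tested genes rose and 24 fell, against 40.8% higher and 40.5% lower among all genes tested. With offsets for length and GC content 36 rose and 37 fell, against 33.3% and 42.8% of the 15358 genes. Listed genes of 4000 exonic bases or more had a median log2 fold change of 1.40 over 52 genes, and the 36 shorter ones had 0.28.

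The genes whose profile over the 6 libraries came nearest to the median profile of the 10 were Igf2, 5031439G07Rik, Srrm1, Tysnd1 and 2510039O18Rik, at Euclidean distances of 0.0589 to 0.0822 on centred log2 CPM. Igf2, a growth factor of the embryo, was at 3745 ± 35.9 CPM in K68R cells and 795 ± 10.8 CPM in WT cells (SD, n = 3 each). The 10 genes themselves lay 0.515 (Agrn) to 5.74 (Hspg2) from their median profile, so they do not share 1 pattern of size, and likeness to that median mostly measures a log2 fold change near 2.2.

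Markers of other cell types that make or carry basement membranes also differed. Among all genes tested 40.8% were called higher and 40.5% lower. The marker values are without offsets for length and GC content. All 8 skeletal muscle markers were called higher (edgeR), with a summed level of 222.6 to 223.9 CPM in K68R libraries and 60.5 to 62.9 CPM in WT libraries. Of 9 endothelial markers 7 were tested, and 3 were higher and 1 was lower. Their sum was 100.5 to 102.7 CPM in K68R cells and 32.2 to 35.5 CPM in WT cells. Most of that sum was the receptor Kdr, at 90.7 CPM in K68R cells and 20.4 CPM in WT cells, while the defining markers Pecam1 and Cdh5 were at 0.488 and 0.974 CPM in K68R cells and 0.677 and 1.09 CPM in WT cells, and Cldn5 was at 0 in K68R. Of 8 pericyte and smooth muscle markers 6 were higher and 2 lower, but their sum was 5199 to 5265 CPM in K68R cells and 5474 to 5504 CPM in WT cells, most of it Acta2. Of 9 endoderm markers 5 were tested, and 4 were higher and 1 lower. Their sum was 271 to 273 CPM in K68R cells and 197 to 199.6 CPM in WT cells, mostly Thbd. Gata6, Gata4 and Sox7 were also higher, at 16.2, 5.26 and 1.14 CPM in K68R cells and 6.42, 1.92 and 0.567 CPM in WT cells. Afp was lower, at 0.0818 CPM in K68R cells and 0.988 CPM in WT cells. Ttr was at 0 in K68R and Sox17 was under 0.2 CPM in both genotypes, and neither was tested.

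The epithelial markers, of which 1 of 8 was higher and 6 lower, summed to 104.6 to 107 CPM in K68R cells and 98.7 to 102 CPM in WT cells. Of 7 Schwann and glial markers 6 were tested, and 3 were higher and 2 lower. Their sums were 25.3 to 26.3 CPM in K68R cells and 26.3 to 28.0 CPM in WT cells. Of 7 adipocyte markers 6 were tested and all 6 fell. The sum was 59.4 to 63.9 CPM in K68R cells, against 229 to 241 CPM in WT cells. Of 6 cartilage markers 4 were tested and 3 were higher. Their sums were 158 to 165 CPM in K68R cells and 10.3 to 11.2 CPM in WT cells. In K68R cells most of it was Col2a1, at 134 CPM, against 0.588 CPM in WT cells. Of 7 macrophage markers 2 were higher and 3 lower, with sums of 133 to 139 CPM in K68R cells and 145 to 147 CPM in WT cells. The 11 fibroblast markers had sums of 11354 to 11453 CPM in K68R cells and 7839.7 to 7933 CPM in WT cells. The part of any of these cell types in the levels of the 10 genes was not tested.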

How the data were processed

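Per the labels, RNA was taken from embryonic fibroblasts with an RNA integrity number above 4 and made into stranded poly(A) libraries. The submitters' processing notes name HISAT2 2.2.1, featureCounts 2.0.6, SAMtools and bcl2fastq, and the build mm39. The values deposited by the authors are unnormalized counts, and per the file headers read pairs were counted over exons of the RefSeq annotation without a strand option, so reads where genes overlap on either strand could not be assigned to one of them. The exonic length deposited beside the counts was used as given. Other upstream steps are not given in the sources used here.

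Groups came from sample titles. Libraries of the same genotype, compared in pairs, gave chi-square values that averaged 1.85 to 2.24 over genes, more than counting noise gives. All 6 were kept as separate libraries. The common coefficient of variation beyond counting noise was 2.19%, and these values do not show whether the replicates were biological or technical. Counts were fitted in R 4.3.3 with edgeR 4.0.16 (filterByExpr, TMM, robust quasi-likelihood F test over 16730 genes, Benjamini-Hochberg, called at an adjusted p under 0.05). CPM used TMM-scaled libraries, and log2 CPM a prior count of 2. Floors cover counting error only. Offsets were smooths per library of log2 CPM over log2 exonic length, with or without GC content (mgcv 1.9.3), and GC content came from the longest GENCODE M21 transcript by symbol, for 91.8% of the genes tested. DESeq2 1.42.0 and limma 3.58.1 were alternatives. The 10 genes, the lists, the markers and the naming rule were chosen with earlier results of these data known. The rule named the 10 genes, Sod2, up to 3 called genes per list with the largest change that reached 5 CPM in a genotype, up to 3 called against the median of their list, and the 5 nearest profiles. Levels are means ± SD of 3 libraries. A listed item is not reported here and was left out of the counts over the lists.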

Additional observations from a re-analysis of the deposited data

How the results depend on the processing

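Each of the 10 genes kept a positive log2 fold change (K68R over WT) under every alternative run, although Agrn was at 0.07 and no longer called with offsets for length and GC content. Their median log2 fold change of 2.19 was 2.199 with DESeq2 size factors, 2.08 with upper quartile normalization, 2.15 with no filter on low counts, 2.22 with a filter of 1 CPM in 3 libraries, and 2.198 in DESeq2. It was 1.47 with offsets for exonic length and 0.78 with offsets for length and GC content, the settings that moved it most, and 2.16 to 2.204 without each library in turn. Upper quartile normalization, no filter and the length offsets put the median of all genes at -0.12, 0.15 and -0.22. The other basement membrane genes, 57 higher and 24 lower, were 36 higher and 37 lower with offsets for length and GC content, when 25 of them changed direction. In all other settings they stayed between 49 and 57 higher and between 22 and 33 lower. Same-numbered libraries of the genotypes deviated together by correlations of 0.0181, 0.00956 and 0.0303, and differently numbered ones by -0.0388 to 0.0191. Libraries of a genotype differed so little that these values cannot decide whether the numbers pair the samples. With a replicate block the median was 2.19, 57 listed genes were higher and 24 lower, and over all genes 6804 were higher and 6763 lower. Depth limits Lama5 and the minor type IV collagen chains in WT, which rest on few counts.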
